A study of Mus musculus with 8 samples.

Results

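The amino acid and endoplasmic reticulum stress response was followed through 46 genes, taken by symbol from the 24426 genes of the deposited count table. The genes were taken for their known roles, with earlier results of these data known. They comprised 9 stress regulators and targets of the transcription factor ATF4, 6 enzymes of asparagine, serine and one-carbon synthesis and 7 amino acid transporters. With them were 8 cytosolic tRNA synthetases and 3 genes of the unfolded protein response, the sensors Ern1 and Atf6 and the factor Xbp1. The last 13 were chaperones and folding or degradation factors of the endoplasmic reticulum. All 46 were in the table, and all 46 passed the filter on low counts. Th17 cells, the helper T cells that make IL-17, had been cultured from C57BL/6J mice under a condition that the labels name Th17(23), harvested on day 4-5 and sorted for GFP, and their polyadenylated RNA was sequenced. The vector experiment held 2 libraries of cells transduced with a control vector and 2 of cells transduced with miR-96. The genotype experiment held 2 libraries of miR-183C+/+ cells (wild type) and 2 of miR-183C-/- cells (knockout), neither of them transduced, miR-183C being the cluster of miR-183, miR-96 and miR-182. The labels give no age, no sex and no source for the control animals, and no source says whether the 2 libraries of a group come from different animals or cultures. Every p-value therefore measures only the spread between these libraries, which may be technical in part. Sex-linked transcripts did differ between the 2 libraries of the miR-96 group and of the wild type group, and Xist between the knockout libraries, as given below.

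Cells that run short of amino acids, or whose endoplasmic reticulum fills with unfolded protein, phosphorylate the initiation factor eIF2α. Most translation then slows while that of ATF4 rises, and ATF4 switches on amino acid synthesis, transport and tRNA charging together with its partners CHOP (gene Ddit3) and ATF3. The unfolded protein response has further arms: IRE1α (gene Ern1) splices the Xbp1 message into a form that encodes an active transcription factor, and ATF6 is cut loose from the membrane. Both induce chaperones such as BiP (gene Hspa5). Activated T cells take up large amounts of amino acids as they grow, and plasma cells depend on XBP1 for secretion.

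The microRNAs that the groups add or remove are read from chromosome 6 (RefSeq, GRCm38.p6, minus strand). Each has a seed of its own, bases 2 to 8, which is printed in capitals.
miR-183-5p, chr6:30169711-30169732: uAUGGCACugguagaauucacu
miR-96-5p, chr6:30169506-30169528: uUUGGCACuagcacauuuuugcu
miR-182-5p, chr6:30165962-30165986: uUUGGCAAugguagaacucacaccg

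The promoters were searched for elements of the arms that the set combines. RefSeq windows from 250 bases before to 50 bases after the start of transcription were found for 38 of the 46 genes. The ATF4 response element TGATGNAA, searched on both strands, lay in 10 of the 38 (26.3%), against 4.51% of 27025 genes. The endoplasmic reticulum stress element, CCAAT and CCACG with 9 bases between them, lay in 6 of the 38 (15.8%: Calr, Creld2, Dnajc3, Hsp90b1, Hspa5 and Pdia6), against 0.137% of all genes. These are matches of letters in a window, not measured binding. The genes were chosen for their known roles in these responses, so a share above that of all genes cannot count as a result. The matches are shown with 10 bases on either side, read in the direction of the element, with the fixed letters of the element in capitals. The first 5 hold the ATF4 element, in the regulators Atf3, Trib3 and Vldlr, the synthesis enzyme Asns and the transporter Slc7a11, and the last 3 hold the stress element of chaperones.
Atf3, chr1:191183426-191183453, plus strand: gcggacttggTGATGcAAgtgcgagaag
Trib3, chr2:152344029-152344056, plus strand: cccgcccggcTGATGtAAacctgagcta
Vldlr, chr19:27216810-27216837, minus strand: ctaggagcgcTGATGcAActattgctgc
Asns, chr6:7693215-7693242, minus strand: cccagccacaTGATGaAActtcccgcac
Slc7a11, chr3:50443662-50443689, minus strand: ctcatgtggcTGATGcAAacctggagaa
Hspa5, chr2:34772015-34772053, plus strand: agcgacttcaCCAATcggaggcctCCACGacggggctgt
Dnajc3, chr14:118937817-118937855, plus strand: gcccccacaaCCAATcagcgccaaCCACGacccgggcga
Calr, chr8:84847065-84847103, plus strand: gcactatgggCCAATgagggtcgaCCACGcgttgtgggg

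Herpud1, a factor of protein degradation at the endoplasmic reticulum, was the only one of the 38 windows with elements of both kinds, the ATF4 element and the second stress element ATTGGNCCACG, which 0.0444% of all genes held. Its window is printed for that reason, on the plus strand of chromosome 8, with both elements in capitals; the first of them is the ATF4 element read on the opposite strand. The element TGACGTGG, known as a site of XBP1, was in 0 of the 38 windows and in 0.714% of all genes.
Herpud1, chr8:94386179-94386478, plus strand: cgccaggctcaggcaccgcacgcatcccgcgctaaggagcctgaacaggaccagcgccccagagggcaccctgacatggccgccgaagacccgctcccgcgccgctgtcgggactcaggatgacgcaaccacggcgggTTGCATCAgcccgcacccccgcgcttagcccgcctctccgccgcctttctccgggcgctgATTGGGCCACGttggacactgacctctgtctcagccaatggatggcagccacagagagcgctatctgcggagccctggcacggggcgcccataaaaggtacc

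Total estimated counts ran from 7142429 (knockout library 1) to 12452659 (control vector library 1). Knockout library 1 stood apart in its values: 55.6% of its detected genes were not whole numbers, against 6.39% to 7.41% in the other 7. The polyadenylated RNA holds little of the microRNA precursors, so the labels could be checked only in part: the Mir96 gene had 7 and 2 reads in the miR-96 libraries and 0 in the other 6, and Mir182 and Mir183 had 0 reads in all 8. Of 14 T cell and Th17 markers 13 were in the table, and all 13 were detected in every library, with a summed level of 2647 to 3845 CPM (counts scaled to the library's total, the usual unit of RNA-seq levels). Il17a stood at 122 and 90.9 CPM in the control-transduced libraries, at 189.8 and 330.0 in the miR-96 libraries, at 165 and 261 in the wild type and at 14.5 and 24.4 in the knockouts. Sex-linked transcripts also moved with the vectors: 4 Y-linked genes together gave 1.02 and 0.0967 CPM in the control-transduced and 111 and 330 CPM in the miR-96 libraries, and Xist was at 1220 and 1480 against 1082 and 166 CPM. In the genotype experiment the Y-linked sum was 114 and 283 CPM in wild type and 244 and 266 CPM in knockout cells, with Xist at 1218 and 389.7 and 0.00 and 144 CPM.

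Per kilobase of exon the chaperone Hspa5 had the highest mean level of the set over the 8 libraries, 227 CPM per kb, followed by Calr (182), Hsp90b1 (150), Atf4 (108), Phgdh (82.4) and Gars (79.8). At the other end, Ern1 was at 2.08 CPM per kb, Vldlr at 1.17 and Slc7a11 at 0.0673. The 46 genes together took 0.671% to 0.831% of a library's counts. The steadiest was Gars, glycyl-tRNA synthetase, whose highest library exceeded its lowest 1.17-fold. Vldlr and Slc7a11 spanned 12.6-fold and 16.9-fold.

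**Figure D1:**
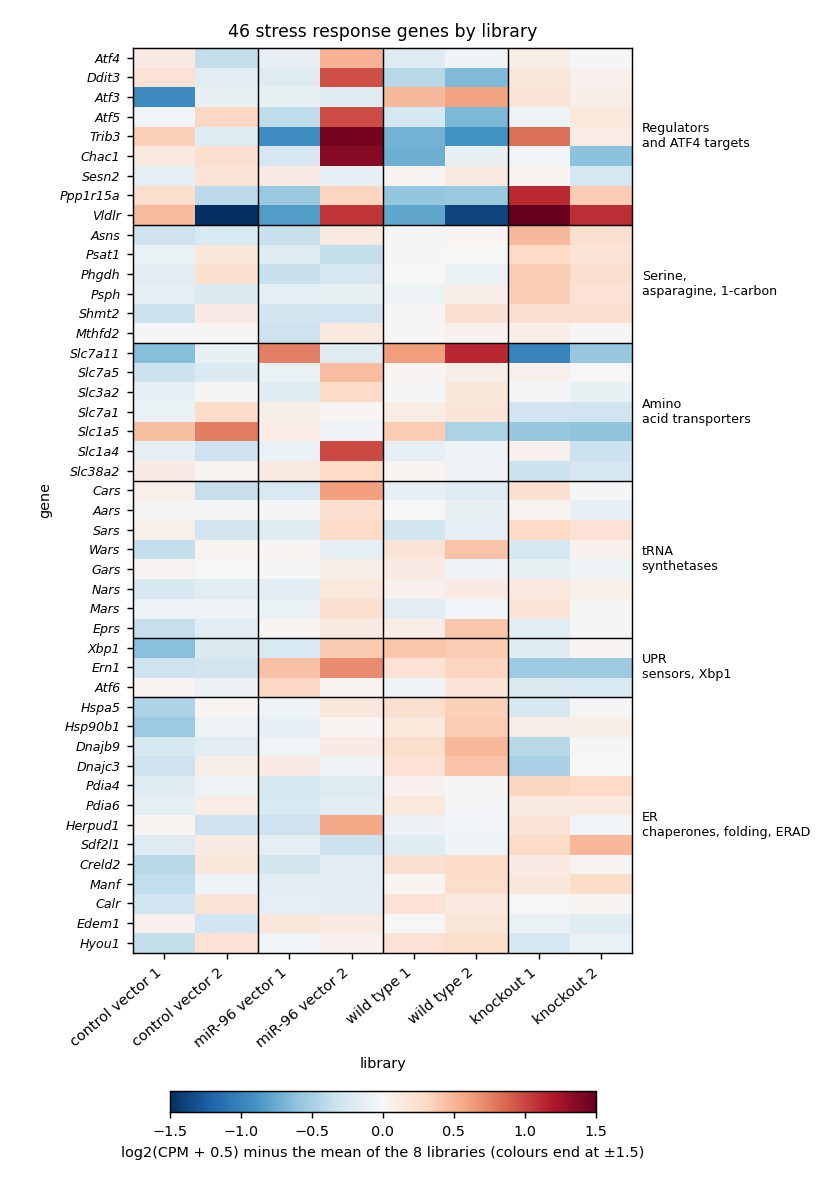
Level of each of the 46 genes (rows, grouped by role) in each of the 8 libraries (columns), as log2(CPM + 0.5) minus the gene's mean over the 8 libraries. Red is above that mean and blue below it; the regulators differ most, with miR-96 library 2 and knockout library 1 high for Trib3, and Xbp1, Ern1 and most chaperones are blue in control vector library 1.

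With miR-96, 0 of the 46 genes passed the test against the control vector (edgeR quasi-likelihood test, Benjamini-Hochberg adjusted p under 0.05), where 0.110% of the 11851 genes tested did. DESeq2 also called 0 of the 46 and 0.885% of all genes. At an unadjusted p under 0.05 there were 5 of the 46 (10.9%), against 8.70% of all genes: Ern1, Xbp1, Slc7a5 and Slc1a4 were higher and Slc1a5 was lower. Both miR-96 libraries were above both controls for 9 of the 46 genes, against 18.3% of all genes, and below them for 4, against 17.6%. The median log2 fold change of the 46 was 0.16, and that of all genes tested was 0.01. Without miR-96 library 2 these medians were -0.02 and -0.01, and 19 of the 46 genes, in place of 33, were above 0.

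In knockout cells 2 of the 46 genes (4.35%) passed the same test against wild type, where 13.0% of all genes did. Ern1 fell and Ppp1r15a rose. At an unadjusted p under 0.05 there were 13 of the 46 (28.3%; 5 higher and 8 lower), against 34.4% of all genes. Both knockout libraries were above both wild type libraries for 16 genes and below them for 20, against 34.9% and 34.9% of all genes. The median log2 fold change was -0.01 for the 46 and -0.01 for all genes. DESeq2 called Vldlr besides Ern1 and Ppp1r15a, 3 of the 46 (6.52%), against 2167 of 12122 genes. The calls depended on single libraries. Without knockout library 1, wild type library 1 or wild type library 2, 0 of the 46 were called, and 0, 20 and 1 of all genes, and without knockout library 2 the Ern1 call was lost.

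**Figure D2:**
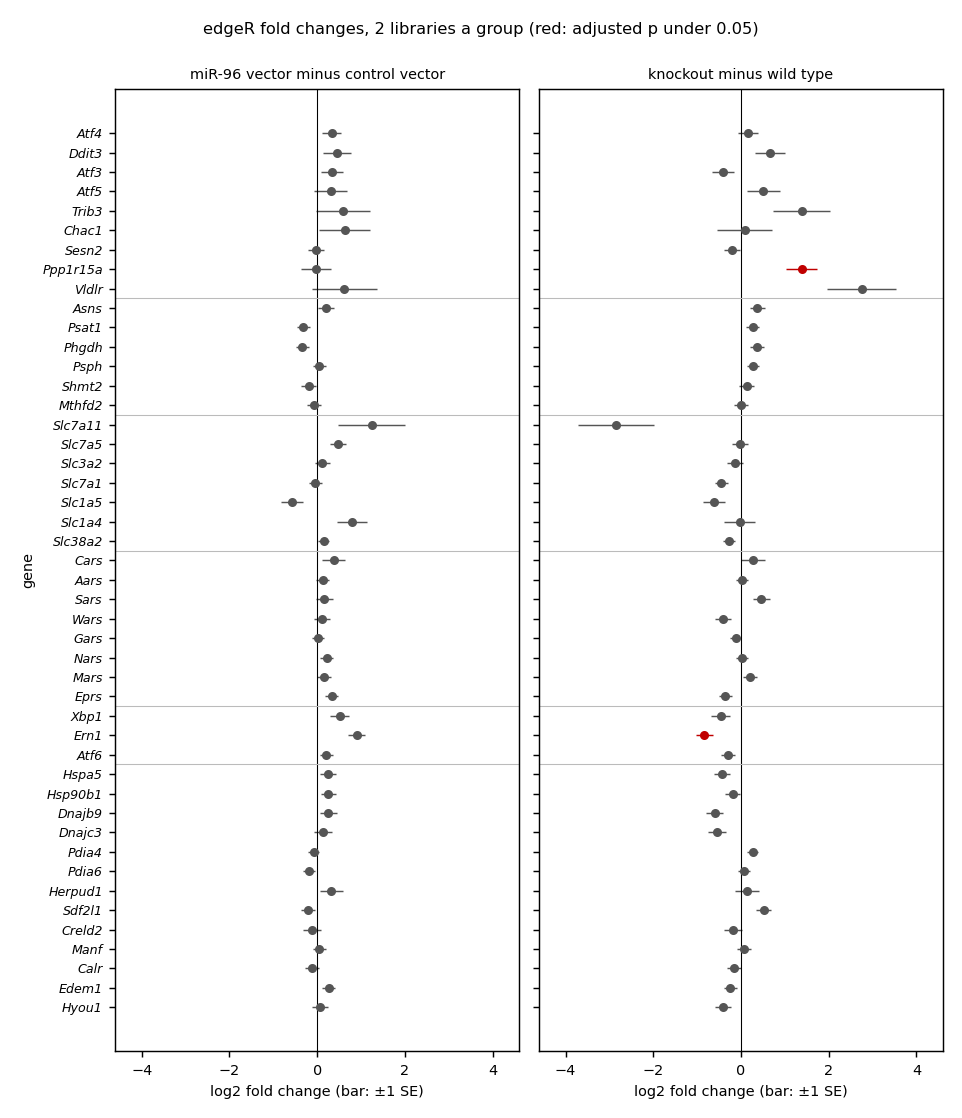
Log2 fold change of each gene (rows, by role, lines between roles) with miR-96 against the control vector (left) and in knockout against wild type cells (right), with bars of 1 SE from edgeR; red marks an adjusted p under 0.05. On the left no gene is red. All 8 tRNA synthetases lie above 0 there (3 of the 8 without miR-96 library 2), as do Ern1, Atf6 and Xbp1. On the right Ppp1r15a (1.38) and Ern1 (-0.84) are red and all 7 transporters lie below 0 (5 without knockout library 2).

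Among the 9 regulators and ATF4 targets, Ppp1r15a passed the test in knockout cells and the other 8 did not, where 13.0% of all genes passed. Ppp1r15a, on chr7:45522916-45526268 (minus strand, GRCm38), encodes GADD34, the subunit that brings a phosphatase to eIF2α and ends the stress response. It was at 26.2 and 26.5 CPM in the wild type and 85.9 and 51.5 CPM in the knockout libraries. Both knockout libraries were higher than both wild type libraries, library 1 by the wider margin, and the log2 fold change was 1.38 (SE 0.35, adjusted p = 0.0395). The adjusted p was 0.295 without knockout library 1, 0.157 without wild type library 1 and 0.213 without wild type library 2. In the vector experiment it was at 47.3 and 29.8 CPM with the control vector and 26.6 and 49.3 CPM with miR-96. There the groups overlapped, each holding a low and a high library, and the log2 fold change was -0.03 (SE 0.34). Tulp2, a gene that overlaps Ppp1r15a, had 0 reads in all 8 libraries.

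Vldlr, a lipoprotein receptor known as an ATF4 target, had the widest difference between genotypes among the regulators. It was at 4.63 and 2.87 CPM in the wild type and 31.8 and 18.5 CPM in the knockout libraries. The groups did not overlap, and the log2 fold change was 2.75 (SE 0.79, adjusted p = 0.0523). Trib3, a pseudokinase that restrains ATF4 and CHOP, was at 7.55 and 6.54 CPM in wild type and 23.0 and 13.8 CPM in knockout cells. Its groups did not overlap either, with knockout library 1 the highest, and the log2 fold change was 1.38 (SE 0.66, adjusted p = 0.17). Ddit3, the gene of CHOP, was at 28.1 and 23.6 against 42.2 and 39.4 CPM, with both knockout libraries higher. Its log2 fold change was 0.66 (SE 0.33, adjusted p = 0.196); Ddit3 overlaps Mars on the opposite strand, and no source used here says whether reads were counted by strand.

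Atf4 itself was nearly level between the genotypes. It was at 219 and 242 CPM in wild type and 267 and 248 CPM in knockout cells. The knockout libraries were only just above the wild type, and the log2 fold change was 0.16 (SE 0.23, adjusted p = 0.653). ATF4 is controlled mainly through translation, which RNA levels do not measure. Atf3 went the other way, at 59.0 and 64.2 CPM in wild type and 47.9 and 45.0 CPM in knockout cells, with a log2 fold change of -0.41 (SE 0.24, adjusted p = 0.268). Of the other regulators, Atf5 was higher in both knockout libraries, as was Nup62 (186 and 197 against 220 and 233 CPM), which overlaps it, so that their reads may not be separate. Sesn2, a sensor of leucine, was lower in both, and Chac1, which breaks down glutathione, overlapped at 46 wild type and 41 knockout reads.

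In the vector experiment the regulators differed more between the 2 libraries of a group than between the groups. Trib3 was at 16.5 and 11.0 CPM with the control vector and at 6.41 and 35.3 CPM with miR-96. The miR-96 libraries lay below and above both controls. Ddit3 was at 43.9 and 33.6 against 32.9 and 73.9 CPM, Vldlr at 11.7 and 2.51 against 4.40 and 18.0 CPM and Atf4 at 273 and 196 against 231 and 359 CPM. For all 4 genes control vector library 1 was above library 2, and miR-96 library 2 was the highest of the 4 libraries. Atf3 did not share this order, at 21.3 and 38.7 CPM with the control vector and 38.8 and 36.6 CPM with miR-96. In 7 of the 9 regulators miR-96 library 2 was above library 1, and the median absolute log2 difference between these 2 libraries was 1.16, against 0.26 over all genes tested. In the control vector group it was 0.47 against 0.24, in wild type 0.19 against 0.16 and in knockout cells 0.29 against 0.25. The log2 fold changes with miR-96 were 0.58 (SE 0.62, adjusted p = 0.84) for Trib3, 0.45 (SE 0.33, adjusted p = 0.737) for Ddit3 and 0.33 (SE 0.22, adjusted p = 0.731) for Atf4, and without miR-96 library 2 they were -1.10, -0.24 and -0.02.

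**Figure D3:**
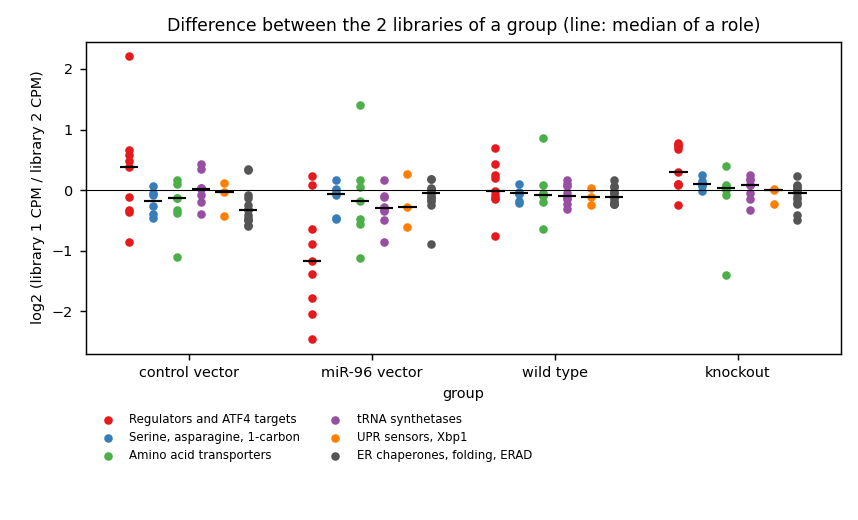
Log2 ratio of library 1 to library 2 in each group for each of the 46 genes, coloured by role, with a line at the median of each role. The regulators (red) with miR-96 reach from above 0 to below -2, with a median of -1.16, and no other role in any group has a median this far from 0.

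The 6 synthesis enzymes were higher in knockout cells in small steps, none of which passed the test. In 5 of the 6 both knockout libraries were above both wild type libraries, against 34.9% of all genes, and the log2 fold changes of the 6 ran from 0.01 (Mthfd2) to 0.37 (Asns). Asns, asparagine synthetase, was at 69.2 and 71.9 CPM in wild type and 99.5 and 83.5 CPM in knockout cells. The log2 fold change was 0.37 (SE 0.18, adjusted p = 0.173). Phgdh, which commits glucose carbon to serine, was at 202 and 189 against 261 and 240.1 CPM, with a log2 fold change of 0.36 (SE 0.16, adjusted p = 0.139). Psat1, the next enzyme of that path, was at 184 and 188 against 230.5 and 217 CPM, and its groups did not overlap.

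With miR-96 Phgdh and Psat1 were lower than in both controls. Phgdh was at 180.3 and 237 CPM with the control vector and 160.2 and 169.9 CPM with miR-96, a log2 fold change of -0.34 (SE 0.16, adjusted p = 0.584). Psat1 was at 176 and 211 against 165 and 146 CPM, a log2 fold change of -0.31 (SE 0.14, adjusted p = 0.574). Each of these groups stood clear of the other by less than the gap between the control libraries. Asns was at 56.9 and 60.2 against 56.2 and 78.5 CPM, with miR-96 library 1 below and library 2 above both controls. The effect of miR-96 minus the effect of the knockout was -0.70 (SE 0.22, adjusted p = 0.0754) for Phgdh and -0.58 (SE 0.20, adjusted p = 0.0922) for Psat1 in log2, and neither passed the test.

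All 7 transporters had log2 fold changes below 0 in knockout cells, from -2.84 to -0.03, and 0 passed the test. Without knockout library 2, 5 of the 7 were below 0, and without wild type library 2, 6 were. In 4 of the 7, Slc7a11, Slc7a1, Slc1a5 and Slc38a2, both knockout libraries were below both wild type libraries, as they were for 34.9% of all genes. Slc7a11, the cystine importer, was the least expressed gene of the set. It had 35 reads over the wild type libraries and 4 over the knockout libraries, or 1.46 and 2.28 against 0.135 and 0.357 CPM. Scaled to library size, wild type was 7.55 times knockout (95% interval 2.70 to 29.2, counting error only), and the fitted log2 fold change was -2.84 (SE 0.87, adjusted p = 0.0601). Slc7a1, which carries arginine and lysine, was at 192 and 202 against 145 and 144 CPM, clear of each other, with a log2 fold change of -0.45 (SE 0.15, adjusted p = 0.0715). Slc1a5, a carrier of glutamine and other neutral amino acids, was at 305 and 168 against 157 and 154 CPM. Wild type library 2 was close to the knockout level and wild type library 1 far above it. Slc38a2, another carrier of neutral amino acids, was at 201 and 188 against 157 and 165 CPM, with no overlap.

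With miR-96 the transporters did not move as a group. Slc7a5, which forms the large neutral amino acid transporter LAT1 with Slc3a2, was at 151 and 165 CPM with the control vector and 177 and 261 CPM with miR-96. Both miR-96 libraries were higher, library 2 by the wider margin, and the log2 fold change was 0.47 (SE 0.18, adjusted p = 0.537). Slc1a5 was lower, at 319.6 and 399 against 253 and 227 CPM, with a log2 fold change of -0.58 (SE 0.25, adjusted p = 0.573). It was the only one of the 46 genes (2.17%) that was below its control group in both libraries of both contrasts, against 2.03% of all genes. Slc1a4 was higher in both miR-96 libraries, and Slc7a11 had 11 reads over the control and 23 over the miR-96 libraries.

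With miR-96 the log2 fold changes of all 8 tRNA synthetases were above 0, from 0.02 (Gars) to 0.37 (Cars), and 0 passed the test. Without miR-96 library 2, 3 of the 8 were above 0, with a median of -0.02 in place of 0.16. In knockout cells they divided: Sars, Cars and Mars were higher in both libraries and Wars, Gars and Eprs lower, against 34.9% and 34.9% of all genes. Eprs, which charges glutamate and proline, followed opposite directions in the 2 experiments. Its libraries were at 251 and 286 CPM in the control-transduced group, at 325 and 349 in the miR-96 group, at 340.2 and 424 in the wild type and at 283 and 315 in the knockouts. The groups were clear of each other within each experiment, and the effect of miR-96 minus that of the knockout was 0.68 (SE 0.22, adjusted p = 0.0763) in log2. Sars, for serine, was at 233 and 257 against 349 and 329 CPM by genotype, a log2 fold change of 0.47 (SE 0.19, adjusted p = 0.118). Wars, for tryptophan and known as an interferon target, was at 139 and 163 against 101 and 127 CPM. Nars, for asparagine, was at 223 and 236 against 237 and 296 CPM in the vector experiment, with both miR-96 libraries just above the controls.

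Ern1, Atf6 and Xbp1 were lower in all knockout libraries than in all wild type libraries, as were 34.9% of all genes. Ern1 passed the test, as did 13.0% of all genes. Ern1, on chr11:106394650-106487852 (minus strand, GRCm38), was at 18.9 and 20.3 CPM in wild type and 11.0 and 11.0 CPM in knockout cells. It fell by 0.84 on the log2 scale (SE 0.20, adjusted p = 0.0332). The adjusted p was 0.135 without wild type library 1, 0.207 without wild type library 2, 0.245 without knockout library 1 and 0.0602 without knockout library 2. With the replicate numbers as a block it was 0.0739 for Ern1 and 0.0769 for Ppp1r15a, so neither passed.

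With miR-96 Ern1 was higher: 12.9 and 13.2 CPM with the control vector and 22.1 and 26.7 CPM with miR-96. The control libraries lay close together and both miR-96 libraries were above them, but the log2 fold change of 0.90 (SE 0.19, adjusted p = 0.291) did not pass the test over all genes. The effect of miR-96 minus the effect of the knockout was 1.74 in log2 (SE 0.27, adjusted p = 0.0154). Ern1 was the only one of the 46 genes called for this difference, where 9.03% of all genes were. DESeq2 called 5 of the 46 (10.9%), adding Eprs, Phgdh, Ppp1r15a and Xbp1, against 1647 of 11801 genes. The call was lost without wild type library 1 (adjusted p = 0.0516), wild type library 2 (0.103) or knockout library 1 (0.0665).

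Xbp1, the message that IRE1α splices, ran in the same directions as Ern1. Its libraries were at 134 and 180.5 CPM in the control-transduced group, at 177 and 271 in the miR-96 group, at 278 and 269.8 in the wild type and at 183 and 214 in the knockouts. The genotypes did not overlap, while miR-96 library 1 lay below control vector library 2. The log2 fold change was 0.51 (SE 0.22, adjusted p = 0.573) with miR-96 and -0.47 (SE 0.22, adjusted p = 0.167) in knockout cells. These are levels of the whole gene, and the spliced form was not separated. Atf6 was at 76.2 and 69.9 and 92.2 and 76.7 CPM in the vector and at 71.8 and 85.3 and 64.7 and 63.5 CPM in the genotype experiment, without overlap in either.

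Transcripts of B and plasma cells, which use Ern1 and Xbp1 heavily, ran in the same directions within each experiment. The 11 markers of that list, all in the table, together reached 104 and 58.3 CPM in the control-transduced libraries, 162 and 163 in the miR-96 libraries, 137 and 233 in the wild type and 52.3 and 53.0 in the knockouts. Jchain was at 0.0784 and 0.193 against 26.7 and 31.6 CPM in the vector and 24.4 and 64.3 against 1.22 and 0.834 CPM in the genotype experiment. Of the 9 markers that were tested, edgeR called 6 as lower in knockout cells, against 13.0% of all genes. With miR-96 it called 2 as higher, against 0.110% of all genes. Tnfrsf17 was at 0 in all 8 libraries and Pax5 in 2, while Sdc1, the most abundant of the named ones, was at 73.7 and 38.1, 69.9 and 54.7, 47.2 and 44.7 and 32.5 and 33.0 CPM in the same order of groups. The CD8 and NK list moved in the same directions, at 8.0 and 13.3, 32.3 and 42.8, 39.6 and 65.0, and 10.6 and 14.5 CPM. So did the sum of the T cell and Th17 list, at 2896 and 2647, 3240 and 3845, 3161 and 3613, and 2807 and 2693 CPM. Its members did not all follow the sum. Of its 13 genes tested, 1 was called as higher in knockout cells (Cd3e) and 3 as lower (Il17a, Il17f and Batf), where 13.0% of all genes were called. Cd3e was at 171 and 177, 144 and 167, 155 and 151, and 235 and 200 CPM in the same order of groups. The part of any of these cell types in the levels of Ern1 and Xbp1 was not tested. In bulk RNA fewer cells of a type and less RNA per cell cannot be told apart.

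**Figure D4:**
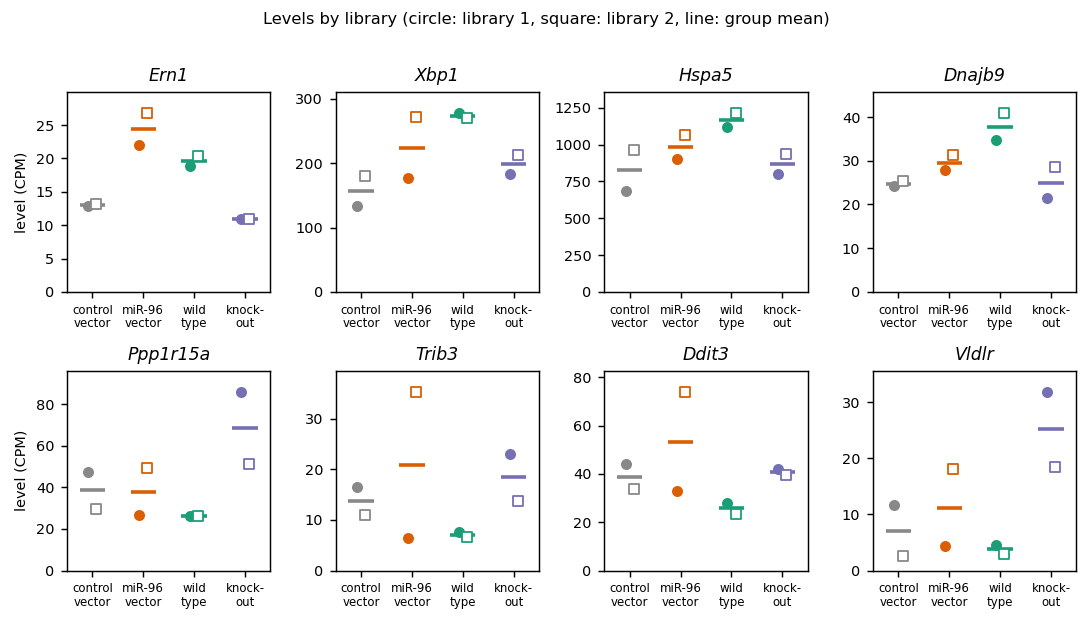
Level in CPM of 8 genes in each library, by group (circle library 1, square library 2, line the group mean; each axis starts at 0). Ern1, Xbp1, Hspa5 and Dnajb9 (top row) are higher in wild type than in knockout libraries, while Ppp1r15a, Trib3, Ddit3 and Vldlr (bottom row) are higher in knockout libraries and split between the 2 libraries with miR-96.

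Of the 13 chaperones and folding factors, 8 were lower in both knockout libraries and 2 were higher, against 34.9% and 34.9% of all genes, and 0 passed the test. Hspa5, the gene of BiP, which holds the sensors inactive, was at 1118 and 1211 CPM in wild type and 798 and 934 CPM in knockout cells. The groups did not overlap, and the log2 fold change was -0.43 (SE 0.18, adjusted p = 0.139). Dnajb9, a BiP partner that represses IRE1α, was at 34.7 and 40.8 against 21.4 and 28.5 CPM, also clear of each other, with a log2 fold change of -0.60 (SE 0.19, adjusted p = 0.0669). Hsp90b1, the chaperone GRP94, was at 666 and 778 against 635 and 634 CPM. Sdf2l1 and Pdia4 ran against the rest. Sdf2l1, a stress-induced protein of the endoplasmic reticulum lumen, was at 45.9 and 50.1 against 63.8 and 74.0 CPM, with both knockout libraries higher, and its log2 fold change was 0.52 (SE 0.17, adjusted p = 0.0687).

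With miR-96 the 13 log2 fold changes ran from -0.21 (Sdf2l1) to 0.32 (Herpud1), with a median of 0.06. Dnajb9 was at 24.2 and 25.4 CPM with the control vector and 27.9 and 31.3 CPM with miR-96. Edem1, which sends misfolded glycoproteins to degradation, was at 228 and 178 against 247 and 241 CPM, a log2 fold change of 0.26 (SE 0.15, adjusted p = 0.662). Both genes stood clear of their controls, and Pdia6 was lower in both miR-96 libraries. Hspa5 was at 688 and 963 against 902 and 1065 CPM and Hsp90b1 at 411 and 565 against 549 and 611 CPM. For both, control vector library 1 was the lowest of the 4 and miR-96 library 1 lay below control vector library 2.

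The members with promoter elements can be set side by side. Of the 10 genes with the ATF4 element, all 10 log2 fold changes with miR-96 were above 0. Their median was 0.46, against 0.13 for the other 36 members and 0.01 for all genes. The other 36 include members without a promoter window, which were not searched for the element. In 1 of the 10 both miR-96 libraries were above both controls, against 18.3% of all genes. Without miR-96 library 2, 3 of the 10 were above 0 and the median was -0.05, against -0.02 for the other 36. In knockout cells 6 were above 0 and 4 below, from -2.84 (Slc7a11) to 2.75 (Vldlr). Of the 6 genes with the chaperone stress element, 5 were lower in both knockout libraries, against 34.9% of all genes, with a median of -0.18, and with miR-96 3 were above and 3 below 0.

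The 2 contrasts share no library. Both groups were clear of each other in both, higher with miR-96 and lower in the knockout, for 6 of the 46 genes (13.0%: Slc38a2, Eprs, Ern1, Atf6, Dnajb9 and Edem1), against 11.3% of all genes. The reverse held for 2 (4.35%: Psat1 and Phgdh), against 10.1% of all genes. None of the 46 was higher in both contrasts, which 1.95% of all genes were.

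MicroRNAs lower the messages that carry a match to their seed in the 3′ untranslated region. All 46 genes had an annotated region in GENCODE M21, with a median length of 856 bases against 1179 for all genes tested. A match to the miR-96 seed (GTGCCAA) lay in 6 of the 46 (13.0%) and in 9.39% of all genes, a match to miR-182 (TTGCCAA) in 8 (17.4%) and 12.3%, and a match to miR-183 (GTGCCAT) in 4 (8.70%) and 10.8%. Some of the sites are shown with the match in capitals.
Trib3, miR-96: gaaacatctctGTGCCAAagaccaa
Atf3, miR-96: tgagccactttGTGCCAAcagagga
Edem1, miR-96: gcttatgtgtaGTGCCAAttagcta
Xbp1, miR-182: ggaggatacttTTGCCAAtgaactt
Dnajb9, miR-182: cttatgacataTTGCCAAgaaattg
Ern1, miR-183: aaaaaaatcttGTGCCATgtgtctt

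The 6 genes with a miR-96 match (Atf3, Trib3, Atf6, Dnajc3, Herpud1 and Edem1) all had log2 fold changes above 0 with miR-96, from 0.13 to 0.58 with a median of 0.29, against 0.14 for the other 40 members. Without miR-96 library 2, 4 of the 6 were above 0, with Trib3 at -1.10, and without control vector library 1, 4 were. In knockout cells 4 of the 6 were below 0. Of the 17 genes with a match to any of the 3 microRNAs, 14 were above 0 with miR-96 (10 without miR-96 library 2) and 10 below 0 in the knockout. Ern1, with its miR-183 match, was lower in the cells that lack the cluster. Vldlr, with a miR-182 match, was higher in those cells (log2 fold change 2.75). Of the 8 genes with a miR-182 match, 4 were above 0 and 4 below 0 in the knockout. Of the 4 with a miR-183 match, 1 was above and 3 were below 0.

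Further genes of the same pathways, in 4 lists, gave 0 calls with miR-96, where 0.110% of all genes tested were called. In knockout cells the eIF2 and stress list had 1 gene that rose and 2 that fell of 20 tested, a share near the 13.0% of all genes. Eif2ak2, a kinase of eIF2α that senses double-stranded RNA, was at 18.4 and 17.1 against 35.7 and 26.4 CPM and rose by 0.81 in log2 (SE 0.22, adjusted p = 0.0470). Eif2b3, a subunit of the exchange factor of eIF2, was at 50.4 and 57.7 against 19.9 and 33.8 CPM and fell by 1.01 (SE 0.24, adjusted p = 0.0333). Jdp2 fell from 5.85 and 9.02 to 2.43 and 2.26 CPM. All 3 were called for the difference between the contrasts as well, which 9.03% of all genes were.

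Of the further amino acid genes Pck2 is described here. Pck2, the mitochondrial phosphoenolpyruvate carboxykinase and a known ATF4 target, was at 60.6 and 25.5 CPM in the control-transduced group, 22.9 and 62.4 in the miR-96 group, 15.5 and 17.9 in the wild type and 93.3 and 51.8 in the knockouts. It had the order of Trib3 and Vldlr, with control vector library 1, miR-96 library 2 and both knockout libraries high, and rose by 2.11 in log2 in the knockout (SE 0.54, adjusted p = 0.0394).

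Of 12 other tRNA synthetases edgeR called 1 as higher and 1 as lower in knockout cells, a share near the 13.0% of all genes. Qars, for glutamine, rose from 141 and 135 to 223 and 187 CPM (adjusted p = 0.0401). Rars, for arginine, fell from 216 and 229 to 92.5 and 147 CPM (adjusted p = 0.0449). Of 35 further unfolded protein response genes 0 were called by edgeR in either contrast, against 0.110% of all genes with miR-96 and 13.0% in the knockout. The smallest p in the knockout belonged to P4hb, a disulfide isomerase, at 392 and 408 against 636 and 529 CPM (log2 fold change 0.54, SE 0.16, adjusted p = 0.0575).

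The untransduced wild type cells were also set against the control-transduced cells, a comparison across experiments that differ in transduction. Wild type minus control vector gave 0 calls among the 46 by edgeR, against 0.228% of all genes, 11 at an unadjusted p under 0.05 (23.9%), against 16.5%, and 2 by DESeq2 (Atf3 and Xbp1), against 3.02%. Of the 13 chaperones 8 were higher in both wild type libraries than in both controls, against 29.3% of all genes, and Xbp1 and Ern1 were too. Ddit3, Atf5, Trib3, Chac1 and Ppp1r15a were lower in both wild type libraries, as were 26.5% of all genes.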

How the data were processed

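Polyadenylated RNA of 8 mouse Th17 cell libraries in 4 groups of 2 had been sequenced. The authors deposited estimated counts per gene symbol, not normalized; per the submitters' processing notes the tools include edgeR, Partek, STAR 2.3.0 and bcl2fastq 2.16.0.10, and mm10 is the build. The notes give these without roles; the counting annotation and its strand setting are not given in those notes. Most estimated counts were whole to within 0.02, except in knockout library 1, and all were rounded to whole counts before testing. Lines with a date in place of a symbol (27 of 24453) were left out, at most 0.243% of a library.

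Genes were kept by filterByExpr of edgeR 4.0.16 (R 4.3.3; minimum count 10, minimum total 15), which left 11851. All 8 libraries were fitted in 1 quasi-likelihood model with a term per group and TMM factors (4 residual degrees of freedom, common biological coefficient of variation 0.188). Contrasts were miR-96 against control vector, knockout against wild type, the difference between these, and wild type against control vector. Calls were made at a Benjamini-Hochberg adjusted p under 0.05 over all genes tested, and no p was adjusted over the 46 genes alone. CPM were taken over TMM-scaled library sizes; a fold change has its SE from the fit. Alternatives were DESeq2 1.42.0, other scaling factors, other filters, 4 libraries only, a block for the replicate number and leaving out each library.

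Values of every library are given for genes that were called, the 2 of each role with the smallest p in each contrast, and Atf4, Ddit3, Xbp1, Hspa5, Asns and Trib3. The 46 genes and the lists of other genes were chosen with earlier results of these data known. One result of the list of further amino acid genes is not reported here. Gene positions, exon lengths and 3′ untranslated regions came from GENCODE M21 (GRCm38, the assembly of mm10), and promoters and microRNAs from RefSeq (GRCm38.p6). The 2 libraries of each group differed by more than counting noise (chi-square over degrees of freedom 8.61 to 22.4), so none was a copy of another.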

Additional observations from a re-analysis of the deposited data

Results flagged for a closer look

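Ern1, the gene of IRE1α, was flagged because its change differed between the 2 experiments. The log2 fold change was 0.90 (SE 0.19) with miR-96 and -0.84 (SE 0.20) in the knockout, and the difference was 1.74 (SE 0.27, edgeR adjusted p = 0.0154; 2 libraries a group). Both miR-96 libraries were above both controls, and both knockout libraries were below both wild type libraries. Over 17 alternatives the difference kept its sign in 17 and passed the test in 13, with an adjusted p of 0.00013 to 0.192. The summed levels of B and plasma cell markers, of CD8 and NK markers and of T cell and Th17 markers all moved in the same directions. Cd3e, a member of the last list, went the other way in both experiments. The part of these cell types in the difference was not tested.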

How the results depend on the processing

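With miR-96, 0 of the 46 genes were called under all alternatives except without a filter, which called 2 (Ern1 and Slc1a5). The knockout called 2; no filter gave 11 and a fit of its 4 libraries alone gave 10, while leaving out each library gave 0 to 5. The difference between contrasts called 1; no filter gave 8, DESeq2 gave 5, and leaving out each library gave 0 to 2. Without both genotype libraries numbered 1, an alternative added after seeing the data, the knockout called 0 and the difference 0. Leaving out Y-linked genes and Xist, also added then, changed no count of the 46. It removed only the rows of those genes, so it cannot show whether the sex of the cells affected other genes. Leaving out each library moved the log2 fold change with miR-96 from -0.024 to 0.62 for Atf4, -0.24 to 0.94 for Ddit3, -1.10 to 1.37 for Trib3 and -0.062 to 0.43 for Asns, each below 0 without miR-96 library 2. In the knockout Ern1 and Ppp1r15a kept their sign in 18 of 18 alternatives and were called in 12 and 13.

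Over all genes the knockout called 1544; it was 3151 without a filter, 2641 with 4 libraries, 477 with the replicate block and 0 to 1975 leaving out each library. With miR-96 13 became 466 without a filter, 113 with DESeq2, 8 with 4 libraries, 8 without Y-linked genes and Xist, and 0 to 125 leaving out each library. The difference gave 1070, then 2534 without a filter, 1647 with DESeq2, 449 with the block and 23 to 1613 leaving out each library. Wild type against control vector gave 27, then 1108 without a filter, 376 with DESeq2, 52 with the block and 2 to 77 leaving out each library. The causes were not tested.

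The deviations of libraries that carry the same number correlated at r = -0.22 in the vector and 0.10 in the genotype experiment. With 2 libraries a group these values cannot show whether such libraries share more than a number. With the replicate block 0 of the 46 genes were called with miR-96 and 0 in the knockout, and the difference still called 1. Crossing the numbers in the vector experiment, also added after seeing the data, gave 9 calls among the 46 in the knockout and 9 for the difference. Over all 11851 genes the calls then also rose, to 2882 in the knockout and 2255 for the difference.

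Upper-quartile factors moved the median of all genes by at most 0.075 in log2 and turned the sign of 2 of the 46 genes in the knockout and of 3 in the difference. Depth limits Slc7a11, where the knockout held 4 reads in all, and Chac1.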
